A study of Mus musculus with 12 samples.

Results

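Livers of mice given XCT790 together with T3 were compared with livers of untreated control mice across all genes measured. The comparison rests on 6 of the 12 arrays of the study, taken by their labels, with 3 arrays of XCT790 plus T3 and 3 arrays of control. All mice were male C57BL/6 animals of 8 weeks, and the labels name no mutation or transgene in any group. XCT790, which binds the nuclear receptor ESRRA as an inverse agonist, was injected into the abdomen each day for 4 days, and T3 (liothyronine, the active thyroid hormone) was added on the last 3 of them. The other groups, used here only to set the joint effect beside its components, were T3 alone for 3 days (3 arrays) and XCT790 alone for 4 days (3 arrays). The labels give the agent of the control mice as none, so the agents, the injection and the vehicle cannot be told apart in a comparison with control. The labels number the replicates without saying whether each came from its own mouse, and the spread behind every p-value is that between arrays, part or all of which may be technical.

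T3 acts through thyroid hormone receptors, nuclear receptors that sit on DNA at response elements and switch from repression to activation when they bind the hormone. In liver they are known for raising lipogenic, deiodinase and mitochondrial genes and for lowering thyroxine-binding globulin. ESRRA, the estrogen-related receptor alpha, is an orphan nuclear receptor that works with the coactivator PGC-1 alpha (Ppargc1a) and is known for driving genes of the respiratory chain, the tricarboxylic acid cycle and fatty acid oxidation. An inverse agonist such as XCT790 lowers the basal activity of the receptor by weakening its contact with coactivators. The title of the study places the turnover of mitochondria between ESRRA and thyroid hormone, and the comparison below gives what both agents did together.

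Levels are log2 intensities after background correction and quantile normalization, 1 probe standing for each gene, and a log2 fold change is the mean of the XCT790 plus T3 arrays minus the mean of the control arrays. In all, 9747 genes were tested. Before scaling, the median log2 intensity of the kept probes was 6.51 to 6.76 on the XCT790 plus T3 arrays, against 6.82 to 7.12 on the control arrays, and 31.9% to 33.8% of probes were detected, against 34.2% to 35.6%. After scaling, arrays of XCT790 plus T3 correlated with each other at r of 0.989 to 0.991 and with control arrays at 0.969 to 0.973 (across probes, which are not independent replicates). Along the first principal component (44.4% of the variance) scores were 19.6 to 22.6 for XCT790 plus T3 and -22.8 to -20.8 for control, without overlap. Hepatocyte markers were present as the tissue label requires: 15 of 18 were tested, and their summed intensity was 201859 to 206994 on XCT790 plus T3 arrays and 220841 to 234154 on control arrays.

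In livers given XCT790 plus T3, 870 genes were higher and 945 were lower than in control livers at an adjusted p under 0.05 (limma, two-sided, Benjamini-Hochberg over all genes). That was 18.6% of the genes tested, 8.93% higher and 9.7% lower. Of these, 207 rose and 156 fell by at least 1 on the log2 scale. At an unadjusted p under 0.05 there were 3127 genes, and the 3 arrays of each group did not overlap for 35.5% of all genes tested. The median log2 fold change of all genes was -0.01 after quantile normalization. Scaling each array to the median of all probes moved that median to -0.27 and turned the split to 288 higher and 2089 lower, whereas scaling to the median of the kept probes, an alternative chosen after seeing the data, gave 962 higher and 809 lower with a median of 0.05. Of the 146 called genes chosen for naming, 2 (Atp5c1 and Ndufs7) changed direction when scaled to the median of all probes, and another 24 lost the call. At the threshold itself, Scamp5 (-0.36, adjusted p = 0.0499) and Ftl1 (-0.30, adjusted p = 0.0499) were just inside, and Nf1 (-0.58, adjusted p = 0.0501) and Ces2g (-0.30, adjusted p = 0.0501) were just outside.

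**Figure D1:**
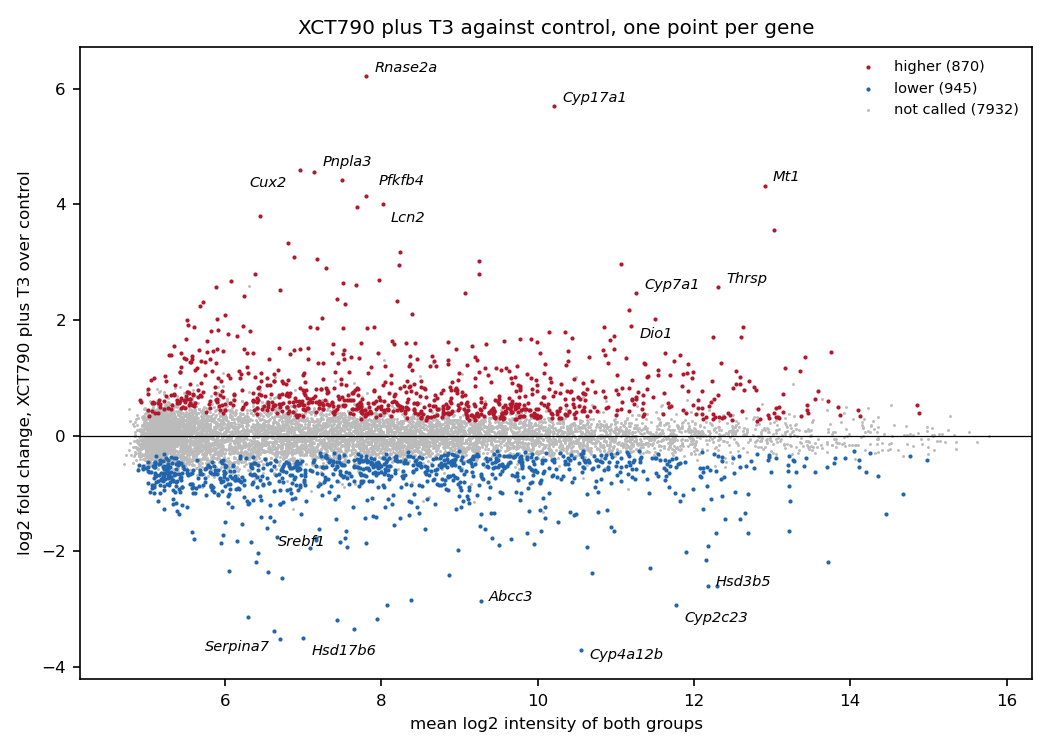
Each point is 1 of 9747 genes, with the mean log2 intensity of the XCT790 plus T3 and control groups on the x axis and the log2 fold change of XCT790 plus T3 over control on the y axis. Red points (870) were called higher and blue points (945) lower at an adjusted p under 0.05; Rnase2a and Cyp17a1 stand at the top and Cyp4a12b at the bottom.

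Cyp17a1, a steroid hydroxylase, had log2 intensities of 13.14, 13.31 and 12.72 in XCT790 plus T3 livers, against 7.12, 7.41 and 7.54 in control livers. The log2 fold change was 5.70 (SE 0.22, adjusted p = 4.07e-08). Rnase2a, a ribonuclease of the eosinophil-associated family, read 10.06, 11.76 and 10.94 with XCT790 plus T3 and 4.58, 4.68 and 4.83 in control. It was not above background on any control array, so the rise is given as at least 53.7-fold (adjusted p = 9.31e-07). Pnpla3, an enzyme of lipid droplets, read 8.94, 9.99 and 9.33 against 4.73, 5.17 and 4.68, a rise of 4.56 (SE 0.25, adjusted p = 3.31e-07), with 1 of 3 control arrays above background. Pfkfb4, which sets the level of the main allosteric activator of glycolysis, read 9.81, 10.11 and 9.71 with XCT790 plus T3 and 5.65, 5.59 and 5.94 in control, a rise of 4.15 (SE 0.27, adjusted p = 1.02e-06). Genes of this ranking were taken only where the arrays of the groups did not overlap, which held for 35.5% of all genes tested.

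Further down the same ranking, Crybb3 (a crystallin) rose by 4.42, Kcnk1 (a potassium channel) by 3.32, Nt5e (the ectoenzyme CD73, which makes adenosine) by 3.17 and Tff3 (a trefoil peptide) by 3.09 on the log2 scale. In control livers Crybb3 and Tff3 were above background on 2 of 3 arrays and Kcnk1 on 1. The other kept probe of Crybb3 gave -0.36, and the mean over its probes a rise of 2.03. Sspo, an extracellular matrix protein of the brain, was not above background on the control arrays and was at least 9.05-fold higher with XCT790 plus T3. Cux2, a transcription factor known in mouse liver for its female-biased expression, was likewise not above background in control and was at least 16.9-fold higher, and the mean over its probes was 2.98 higher on the log2 scale. Lcn2, which binds iron-carrying siderophores, varied more between treated arrays, with 10.76, 9.05 and 10.26 in XCT790 plus T3 livers and 6.27, 5.92 and 5.85 in control livers, a rise of 4.01 (SE 0.90, adjusted p = 0.00918).

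Cyp4a12b, a fatty acid hydroxylase of male mouse liver, read 8.66, 9.04 and 8.40 with XCT790 plus T3 and 12.35, 12.65 and 12.24 in control, a log2 fold change of -3.71 (SE 0.22, adjusted p = 7.07e-07). Its neighbour Cyp4a12a fell by 2.60, but the sequences of the pair are so alike that their probes may share signal. Serpina7, which encodes thyroxine-binding globulin, read 5.03, 4.58 and 5.23 in XCT790 plus T3 livers, against 8.82, 8.42 and 8.14 in control livers, a log2 fold change of -3.51 (SE 0.21, adjusted p = 7.07e-07). It was above background on 1 of 3 XCT790 plus T3 arrays, as was Hsd17b6, and the mean over the probes of Serpina7 gave -2.32. Hsd17b6, a steroid dehydrogenase, fell by 3.50 and Hsd3b5, a male-specific steroid enzyme, by 2.60. As for the rises, the largest falls were taken only from genes whose treated and control arrays did not overlap.

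Abca8a (a lipid transporter) fell by 3.18, Abcc3 (MRP3, which exports conjugated bile acids and bilirubin to blood) by 2.86, Cyp2c23 (an arachidonic acid epoxygenase) by 2.93, Etnppl (which degrades phosphoethanolamine) by 2.93 and Sucnr1 (the succinate receptor) by 2.85. Olig1, a transcription factor best known from oligodendrocytes, read 6.38, 6.56 and 6.15 against 9.65, 9.28 and 9.67 in control, a log2 fold change of -3.17 (SE 0.14, adjusted p = 7.27e-08). Hectd2os (a noncoding transcript) and Krt23 (a keratin) were not above background on the treated arrays and were at least 8.39-fold and at least 6.08-fold lower. Spsb4, an adaptor of ubiquitin ligases, fell by 2.46.

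**Figure D2:**
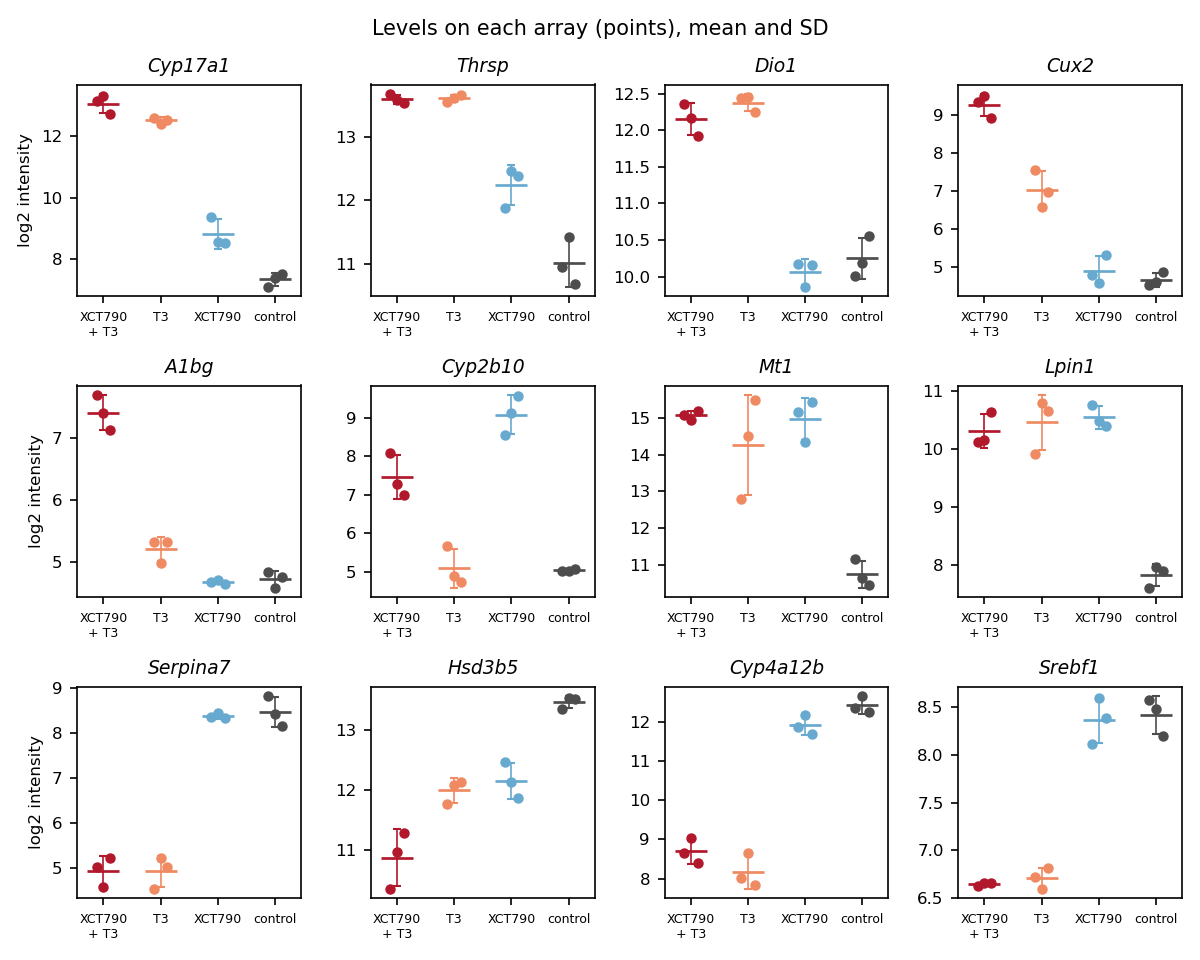
Log2 intensity on the y axis of 12 genes on each array (points), with the mean and SD of the 3 arrays of each group (lines), for XCT790 plus T3, T3 alone, XCT790 alone and control from left to right. Cyp17a1, Thrsp and Dio1 were at similar levels with XCT790 plus T3 and with T3 alone, A1bg and Cux2 were higher with XCT790 plus T3 than with T3 alone, and Serpina7, Hsd3b5, Cyp4a12b and Srebf1 were lower with XCT790 plus T3 than in control.

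Genes known to respond to thyroid hormone were mostly higher. Of 21 tested, 13 were higher and 2 were lower, with a median log2 fold change of 0.76. The counts against control of this and each later list stand beside 8.93% higher and 9.7% lower among all genes. Thrsp (Spot 14, a lipogenic protein) read 13.67, 13.57 and 13.53 in XCT790 plus T3 livers and 10.95, 11.42 and 10.68 in control livers, a rise of 2.58 (SE 0.18, adjusted p = 2.12e-06). Dio1, the deiodinase that converts thyroxine in liver, read 12.36, 12.17 and 11.92 with XCT790 plus T3, against 10.00, 10.19 and 10.56 in control, a rise of 1.90 (SE 0.16, adjusted p = 7.43e-06). Idh3a, a subunit of isocitrate dehydrogenase, rose by 1.60, and Me1, the malic enzyme that supplies NADPH for lipogenesis, rose by 1.59. The 2 members that fell were Serpina7, given above, and Fbp1, a gluconeogenic phosphatase, with -0.72 (adjusted p = 0.0034). The median of the same list was 0.75 for T3 alone and 0.02 for XCT790 alone, each against the same control arrays, so these values share their reference arrays. With T3 alone 11 of the 21 were higher and 4 lower, where 7.22% of all genes were higher and 8.85% lower. With XCT790 alone 5 were higher and 0 lower, where 2.26% of all genes were higher and 2.15% lower.

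Of 11 tested genes for receptors, transporters and deiodinases of thyroid hormone, 2 were higher and 2 were lower, and 1 was higher without XCT790 plus T3 array 1 or 2 or control array 2 or 3. Thra and Thrb, the receptors themselves, each had 1 probe, detected on 0 arrays, and were not tested. Slco1b2, an organic anion transporter of hepatocytes, fell to a log2 fold change of -0.42, a call that was lost when arrays were scaled to the median of the kept probes (adjusted p = 0.122).

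Genes for the estrogen-related receptors and their coregulators were higher or not called: 4 of 13 were higher and 0 lower at the same threshold, with a median of 0.23. Without control array 2 the count was 2. Esrra, the target of XCT790, read 10.01, 9.91 and 9.94 in XCT790 plus T3 livers and 9.50, 9.38 and 9.29 in control livers, a rise of 0.57 (SE 0.11, adjusted p = 0.0049). The groups did not overlap, and the rise was 0.58 with T3 alone and 0.57 with XCT790 alone against the same controls. Scaling to the median of all probes left Esrra at 0.25 with an adjusted p of 0.24. Esrrg, a related receptor, read 6.06, 6.92 and 6.43 against 5.01, 5.19 and 5.21, a rise of 1.33 (SE 0.22, adjusted p = 0.0014), with 2 of 3 control arrays above background. Ppargc1a read 7.89, 7.71 and 7.44 with XCT790 plus T3 and 7.21, 6.94 and 6.68 in control, a rise of 0.74 (adjusted p = 0.0244). That call was lost without XCT790 plus T3 array 1 or 2 or control array 2 or 3 (adjusted p of 0.0655 to 0.0888). Pprc1, another coactivator of the family, rose by 0.71, a call lost without XCT790 plus T3 array 3 or control array 1 or 2 (adjusted p of 0.0613 to 0.0833). After scaling to the median of all probes neither was called (adjusted p of 0.127 for Ppargc1a and 0.148 for Pprc1).

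Of 20 tested genes known as targets of ESRRA, 4 were higher and 2 were lower, with a median of 0.08 that turned to -0.19 when arrays were scaled to the median of all probes. The risers with the lowest p were Idh3a and Cycs (cytochrome c), which rose by 1.60 and 0.49. The call of Cycs was lost after scaling to the median of all probes (0.17, adjusted p = 0.471) and with the mean over its probes (0.36, adjusted p = 0.0678). Those that fell were Sirt3, a mitochondrial deacetylase, with 10.90, 10.82 and 10.82 in XCT790 plus T3 livers against 11.42, 11.72 and 11.56 in control livers, and Acadm, the medium-chain acyl-CoA dehydrogenase, with a log2 fold change of -0.56. Sirt3 changed by -0.72 (SE 0.10, adjusted p = 0.000525). The percentages of all genes called, 8.93% higher and 9.7% lower, lie beside 4 and 2 of these 20.

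The sequence bound by ESRRA, TCAAGGTCA, was searched on both strands in the 250 bases before and 50 bases after a gene's start in RefSeq (GRCm38.p6). Promoters of 7900 of the 9747 genes were found there. Of these genes 1619 had over 1 promoter, and only the first listed was searched. The element was present in 0.278% of all promoters searched, in 0.287% of those of higher genes (2 of 698) and in 0.256% of those of lower genes (2 of 781). The core AGGTCA, which lies inside that element and can overlap it, was present in 12.6% of all, 15.3% of higher and 12.9% of lower promoters, and the DR4 element, 2 such cores in the same direction with 4 bases between them, was in 0 of the 7900. The 4 called genes with the ESRRA element are shown since they are all that the promoters searched held. Each has 51 bases on the strand of the gene and the element, or its reverse complement, in capitals.
Bhmt, higher, chr13:93637804-93637854, minus strand: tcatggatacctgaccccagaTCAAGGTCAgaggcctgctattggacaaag
Psap, higher, chr10:60277458-60277508, plus strand: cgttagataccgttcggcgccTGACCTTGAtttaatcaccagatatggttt
Fancl, lower, chr11:26386983-26387033, plus strand: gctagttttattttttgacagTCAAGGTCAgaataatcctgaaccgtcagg
Msrb2, lower, chr2:19371496-19371546, plus strand: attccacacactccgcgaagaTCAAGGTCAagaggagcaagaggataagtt
A match is a description of these letters only. Bhmt (betaine-homocysteine methyltransferase) rose by 0.47 and Psap (the precursor of the lysosomal saposins) by 0.47, while Fancl (a ubiquitin ligase of DNA repair) fell by 0.84 and Msrb2 (a mitochondrial methionine sulfoxide reductase) fell by 0.38. These 4 were named for the element and not by the size of their change.

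Respiratory chain genes moved little. Of 34 complex I subunits 5 were higher and 0 lower (median 0.11), of 20 genes of complexes II to IV and cytochrome c 3 were higher and 0 lower (median 0.13), and of 15 ATP synthase genes 1 was higher and 0 lower (median 0.09). Each of these medians was negative, between -0.16 and -0.15, when arrays were scaled to the median of all probes, so their sign rests on the scaling. Cox7a1, a subunit of cytochrome c oxidase best known from muscle, stood apart with 8.12, 8.39 and 8.03 in XCT790 plus T3 livers, against 6.92, 7.04 and 6.62 in control livers, a rise of 1.32 (SE 0.21, adjusted p = 0.00101). Ndufa5 of complex I read 12.47, 12.47 and 12.41 against 11.96, 11.82 and 12.05, a rise of 0.51 (adjusted p = 0.0026) that was 0.20 and not called after scaling to the median of all probes (adjusted p = 0.383). Without XCT790 plus T3 array 2 or control array 1 or 2 the complex I count was 2, without XCT790 plus T3 array 1 or 3 it was 3, and the ATP synthase count was 0 without any of the 6 arrays.

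Elsewhere in the mitochondrion, 3 of 21 tricarboxylic acid cycle genes were higher and 2 lower, and Idh3a had the largest change of them. Of 34 genes of the mitochondrial ribosome 0 were higher and 2 lower (median -0.09), among them Mrpl14 with -0.66 (adjusted p = 0.000281). Of 24 genes of biogenesis and import 1 was higher and 1 lower, and of 11 genes of fission and fusion 0 were higher and 2 lower. Dnm1l, the GTPase that cuts mitochondria, read 9.43, 9.37 and 9.29 in XCT790 plus T3 livers and 9.10, 9.08 and 9.30 in control livers, a difference of 0.20 that did not pass the test (adjusted p = 0.202). The lowest XCT790 plus T3 array and the highest control array overlapped. In these small lists single arrays decided counts: leaving 1 out gave 0 to 2 lower and 1 to 3 higher tricarboxylic acid cycle genes, 1 or 2 lower ribosome and fission genes, and 0 to 2 higher and 0 or 1 lower biogenesis genes.

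Among 36 autophagy genes, 7 were higher and 3 were lower, where 8.93% of all genes were higher and 9.7% lower. The list median of 0.01 was -0.26 when scaled to the median of all probes. The lower count was 1 without XCT790 plus T3 array 1 or 3 or control array 3. Ulk1, the kinase that starts autophagosome formation, read 10.66, 10.54 and 10.68 with XCT790 plus T3, against 9.55, 9.44 and 9.65 in control, a rise of 1.08 (SE 0.10, adjusted p = 1.85e-05). Foxo1, a transcription factor that raises autophagy genes in fasting, rose by 1.38 and Ddit4, an inhibitor of mTORC1, by 1.43. Sqstm1, the receptor that carries ubiquitinated cargo, read 10.58, 10.57 and 10.72 against 11.28, 11.06 and 11.17 in control, a log2 fold change of -0.55 (SE 0.09, adjusted p = 0.00132). Of 13 mitophagy receptors 1 was higher, Bnip3l (adjusted p = 0.0115), with 0.43 and, after scaling to the median of all probes, 0.14 without a call. Of 22 lysosomal genes 1 was higher, Psap, with 13.01, 13.07 and 13.07 against 12.70, 12.58 and 12.47, a call lost after scaling to the median of all probes (0.16, adjusted p = 0.458).

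Genes of fat storage and breakdown were among the most often called. Of 25 genes of triglyceride assembly and lipid droplets 10 were higher and 3 lower, and after Pnpla3 these included Lpin1, the phosphatidate phosphatase, with a rise of 2.47, and the lipases Pnpla2 (ATGL) and Mgll, with rises of 1.26 and 1.05. Pnpla2 read 12.13, 11.94 and 11.92 in XCT790 plus T3 livers and 10.83, 10.61 and 10.76 in control livers (SE 0.12, adjusted p = 2.25e-05). Of 20 targets of PPARA, the fasting receptor of liver, 8 were higher and 1 lower, with a median of 0.52 that stayed above 0 under both median scalings (0.20 and 0.52). Plin5, a lipid droplet coat protein that contacts mitochondria, read 10.22, 10.19 and 10.19 against 9.16, 8.91 and 9.16, a rise of 1.13 (adjusted p = 0.000793). Fgf21, a fasting hormone made in liver, read 7.94, 9.05 and 9.02 against 6.44, 6.47 and 6.28 in control, a rise of 2.27 (adjusted p = 0.0012). The member that fell was Bdh1, the last enzyme of ketone body synthesis.

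Fatty acid synthesis genes went both ways, with 4 of 21 higher and 3 lower, where 8.93% of all genes were higher and 9.7% lower. Thrsp and Me1 are given above, and Acacb, which makes the malonyl-CoA that holds back fat oxidation, was the next riser by p. Srebf1, the transcription factor that drives lipogenesis, read 6.63, 6.66 and 6.66 with XCT790 plus T3 and 8.57, 8.48 and 8.19 in control, a log2 fold change of -1.77 (SE 0.14, adjusted p = 3.63e-06). In mitochondrial fatty acid oxidation 4 of 22 genes were higher and 5 were lower (median -0.08). Slc22a5, the carnitine transporter, rose by 1.63, and Echs1 (enoyl-CoA hydratase) and Acadm fell by 0.48 and 0.56. The other kept probe of Echs1 gave 0.06, and its call was lost with the mean over probes (-0.21, adjusted p = 0.225). The count of higher genes in that list was 1 without any XCT790 plus T3 array or without control array 2 or 3, and 2 without control array 1, and that of lower genes was 2 without XCT790 plus T3 array 1 or control array 2 and 3 without XCT790 plus T3 array 3. Of the fatty acid synthesis genes, 1 was lower without control array 2.

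Cholesterol synthesis genes were more often higher with both agents, whereas with XCT790 alone 0 of 19 were higher and 5 lower, where 4.41% of all genes were called, 2.26% higher and 2.15% lower. With XCT790 plus T3 10 of the 19 were higher and 1 lower, with a median of 0.57, against 0.17 for T3 alone and -0.60 for XCT790 alone, all 3 against the same control arrays. Array by array, the median of the list relative to the control mean was 0.68, 0.53 and 0.57 with XCT790 plus T3, 0.43, -0.08 and 0.31 with T3 alone, -0.46, -0.60 and -0.62 with XCT790 alone, and -0.17, 0.03 and 0.18 in control. The 3 arrays of XCT790 plus T3 lay above all others. Sqle, which opens the sterol branch, read 11.37, 11.30 and 11.18 in XCT790 plus T3 livers, 8.65, 8.23 and 8.27 with XCT790 alone, and 9.07, 9.67 and 10.05 in control livers. It rose by 1.69 over control (SE 0.24, adjusted p = 0.000439) and by 2.90 over XCT790 alone (adjusted p = 7.64e-06).

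Mvd, which makes isopentenyl diphosphate, read 9.13, 9.00 and 8.76 with XCT790 plus T3 and 7.01, 7.55 and 7.56 in control, a rise of 1.59 (adjusted p = 0.000262). Hsd17b7 and Cyp51, enzymes of the later sterol steps, rose by 1.23 and 1.02. Against XCT790 alone, 13 of the 19 were higher and 0 lower, where 7.62% of all genes were higher and 7.55% lower. Without XCT790 plus T3 array 2 or control array 1 or 2 the count against control was 6. The list median stayed positive under both median scalings, at 0.24 and 0.56.

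Of 20 genes of bile acid synthesis and transport, 7 were higher and 3 lower. Cyp7a1, which starts the classical pathway from cholesterol to bile acids, read 12.54, 12.47 and 12.45 in XCT790 plus T3 livers and 9.29, 10.23 and 10.55 in control livers, a rise of 2.47 (SE 0.32, adjusted p = 0.000235). The treated arrays were tight and the control arrays were spread, and the groups did not overlap. Abcg5, a subunit of the canalicular sterol exporter, rose by 0.94. Slc51b, a subunit of the basolateral bile acid exporter, was not above background in control and was at least 1.81-fold higher. Abcc3, which exports bile acids on the same side, fell as given above. Among 20 apolipoprotein genes 1 was higher, Apoa4 (1.34), and 1 was lower, Angptl8, an inhibitor of lipoprotein lipase (-1.42, adjusted p = 0.0242). The call of Angptl8 was lost without XCT790 plus T3 array 1 or 2 or control array 2 or 3 (adjusted p of 0.0506 to 0.0852).

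**Figure D3:**
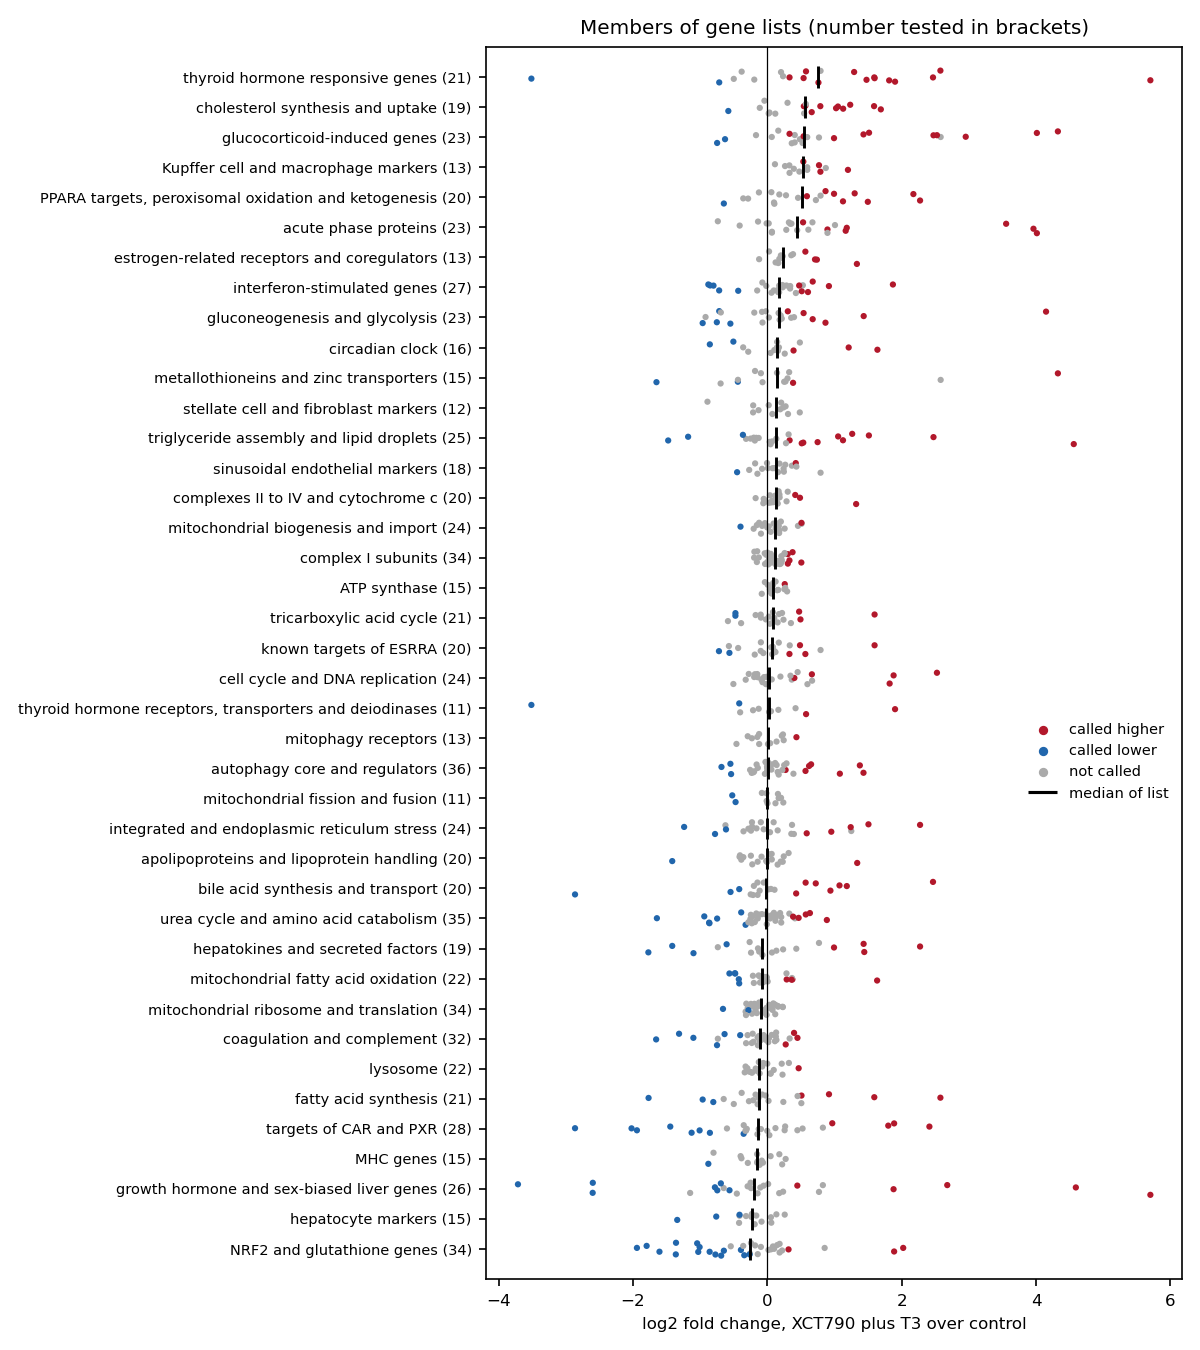
Log2 fold change of XCT790 plus T3 over control on the x axis for every tested member of each list with at least 5 tested members, with red points called higher, blue points called lower and grey points not called. Black bars mark the median, which ran from 0.76 for thyroid hormone responsive genes at the top to -0.26 for NRF2 and glutathione genes at the bottom; medians near 0 changed sign with the scaling.

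Sugar metabolism genes were called in both directions, with 6 of 23 higher and 4 lower, where 8.93% of all genes were higher and 9.7% lower. After Pfkfb4, Ppp1r3b (which targets a phosphatase to glycogen) rose by 1.43 and Slc2a1 (the glucose transporter GLUT1) by 0.87, and Fbp1 fell as given above. Of this list 2 were lower without XCT790 plus T3 array 2 or control array 1 or 2. Of 19 hepatokines and secreted factors 4 were higher and 4 lower: Fgf21 and Nrg4 rose by 2.27 and 1.43, and Spon2, a matrix protein, read 8.91, 8.33 and 8.35 with XCT790 plus T3 against 10.53, 10.07 and 10.29 in control, a fall of 1.77 (adjusted p = 0.000125), and of 0.96 with the mean over its probes.

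Drug-metabolism genes were more often lower than higher with XCT790 plus T3. Of 28 targets of CAR and PXR, the receptors that sense foreign compounds, 4 were higher and 8 were lower (median -0.14). With T3 alone 2 were higher and 11 lower (median -0.12), where 7.22% of all genes were higher and 8.85% lower. With XCT790 alone 6 were higher and 0 lower (median 0.20), where 2.26% of all genes were higher and 2.15% lower. Against XCT790 alone, 3 were higher and 14 lower with both agents, where 7.62% of all genes were higher and 7.55% lower. Cyp2b10, the cytochrome P450 most used to read CAR activity in mouse liver, read 8.09, 7.27 and 7.00 in XCT790 plus T3 livers, 5.67, 4.88 and 4.72 with T3 alone, 8.55, 9.11 and 9.57 with XCT790 alone, and 5.01, 5.03 and 5.08 in control livers. It was not above background in control and was at least 4.84-fold higher with XCT790 plus T3 (adjusted p = 0.000262). It was also higher than with T3 alone (log2 difference 2.36, adjusted p = 0.0191, with 1 of 3 T3 arrays above background) and lower than with XCT790 alone (-1.63, adjusted p = 0.00501). The call against T3 alone was lost without XCT790 plus T3 array 1 or 2 or T3 array 2 or 3 (adjusted p of 0.0501 to 0.111). Sult1d1, a sulfotransferase, rose by 1.80 over control, and by 1.06 with the mean over its probes.

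Glutathione genes gave the clearest fall of a list. Of 34 NRF2 and glutathione genes 15 were lower and 3 higher, with a median of -0.26, and medians of -0.26 for T3 alone and -0.03 for XCT790 alone. Gstp1, a glutathione transferase of male mouse liver, read 13.59, 13.79 and 13.94 with XCT790 plus T3 and 14.98, 15.19 and 15.23 in control, a log2 fold change of -1.36 (SE 0.12, adjusted p = 1.08e-05). Gstm1 read 12.12, 12.32 and 12.13 against 13.11, 13.32 and 13.17 in control, a fall of 1.01. The theta-class transferases went the other way: Gstt1 read 13.47, 13.54 and 13.69 against 11.66, 11.59 and 11.78 in control, a rise of 1.89 (adjusted p = 5.84e-07), and Gstt3 rose by 2.02. Members of these families have similar sequences, so probes may share signal. Without XCT790 plus T3 array 3 or control array 3 the count of lower genes was 9, and the list median stayed negative under both median scalings (-0.45 and -0.14).

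Mt1, a metallothionein that binds zinc and is known to be induced by metals, glucocorticoids and inflammation, rose in all 3 treated groups. It read 15.08, 14.94 and 15.19 with XCT790 plus T3, 12.80, 14.52 and 15.47 with T3 alone, 15.16, 14.33 and 15.42 with XCT790 alone, and 11.15, 10.64 and 10.45 in control. The joint rise was 4.32 (SE 0.51, adjusted p = 0.000121), beside 3.52 for T3 alone and 4.23 for XCT790 alone against the same controls, and the T3 arrays differed most among themselves. Mt2, with 7.77, 7.33 and 7.70 against 5.37, 5.24 and 4.43, was 2.58 higher without passing the test (SE 0.84, adjusted p = 0.0524). Of 15 metallothionein and zinc transporter genes 2 were higher and 2 lower, and Slc39a4, a zinc importer, was among the lower ones with -1.65. Leaving out 1 array gave 1 to 3 in either direction. The promoter of Mt1 is shown because Mt1 had the largest rise of its list, with the core of the metal response element, TGCNCNC on either strand, in capitals; this motif was chosen after seeing the data.
Mt1, chr8:94178839-94179138, plus strand: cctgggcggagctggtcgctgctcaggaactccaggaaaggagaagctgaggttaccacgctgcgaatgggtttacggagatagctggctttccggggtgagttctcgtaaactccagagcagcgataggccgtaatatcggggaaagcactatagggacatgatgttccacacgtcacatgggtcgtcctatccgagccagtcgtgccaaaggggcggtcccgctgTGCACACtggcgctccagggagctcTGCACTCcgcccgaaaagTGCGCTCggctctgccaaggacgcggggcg
The sequence is RefSeq's for GRCm38.p6, runs from 250 bases before to 50 after the annotated start, and holds 3 matches. The promoter of Mt2, which was not called, was searched in the same way and holds 6. At least 3 matches were present in 9.91% of all 7900 promoters, in 11.6% of those of higher genes and in 9.86% of those of lower genes.

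Genes known to be induced by glucocorticoids were called higher in each treated group. Of 23 tested, 10 were higher and 2 lower with XCT790 plus T3, 13 higher and 2 lower with T3 alone, and 8 higher and 0 lower with XCT790 alone, where 8.93%, 7.22% and 2.26% of all genes were higher. The medians were 0.54 for XCT790 plus T3, 0.74 for T3 alone and 0.78 for XCT790 alone against the same controls. On single arrays the list median relative to the control mean was 0.45, 0.59 and 0.86 with XCT790 plus T3, and -0.06, 0.07 and 0.05 in control, without overlap. Fkbp5, a chaperone of the glucocorticoid receptor, read 9.65, 9.78 and 9.67 with XCT790 plus T3 and 6.54, 6.72 and 6.98 in control, a rise of 2.95 (SE 0.23, adjusted p = 4.7e-06). Cdkn1a, the cell cycle inhibitor p21, rose by 2.52, and by 1.51 with the mean over its probes. The controls are labelled as given no agent, so the injection itself cannot be told apart from the agents for this list.

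Acute phase proteins were higher or not called, with 7 of 23 higher and 0 lower (median 0.44). Hp, haptoglobin, read 15.16, 15.09 and 15.12 in XCT790 plus T3 livers and 14.60, 14.57 and 14.60 in control livers, a rise of 0.53 (SE 0.09, adjusted p = 0.00119), and of 0.85 with the mean over its probes. Il6ra, the receptor through which interleukin 6 starts the acute phase response, rose by 1.17. Saa1 read 15.20, 13.94 and 15.25 against 11.23, 11.13 and 11.37, a rise of 3.55 (SE 0.96, adjusted p = 0.0237), and Saa2 read 10.14, 8.29 and 10.59 against 5.62, 5.71 and 5.82, a rise of 3.96 (SE 1.07, adjusted p = 0.0235). The second XCT790 plus T3 array was the lowest for both, and these near-identical genes may share signal. Both calls were lost without XCT790 plus T3 array 1 or 3 or any control array (adjusted p of 0.0548 to 0.0795), and the list count was 4 without XCT790 plus T3 array 3 or any control array. In single arrays of T3 alone and XCT790 alone Saa1 ran from 11.47 to 15.19 and from 11.23 to 15.17.

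Of 26 sex-biased and growth hormone dependent genes, 5 were higher and 7 lower (median -0.19). The male-biased Cyp4a12a, Cyp4a12b and Hsd3b5 fell, and Cux2 and A1bg, female-biased in mouse liver, rose, as did the male-biased Mup20 (named after its values were seen) by 0.45. Hsd3b5 read 10.36, 10.97 and 11.30 with XCT790 plus T3, 11.77, 12.09 and 12.15 with T3 alone, 12.47, 12.14 and 11.87 with XCT790 alone, and 13.36, 13.54 and 13.53 in control. All arrays of XCT790 plus T3 lay below those of the other groups. A1bg, a plasma glycoprotein, read 7.70, 7.41 and 7.13 with XCT790 plus T3, 5.32, 5.00 and 5.34 with T3 alone, 4.69, 4.71 and 4.65 with XCT790 alone, and 4.85, 4.59 and 4.77 in control. It was not above background in control and was at least 4.72-fold higher with XCT790 plus T3 (adjusted p = 3.1e-07).

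Interferon-stimulated genes split, with 6 of 27 higher and 5 lower against control (median 0.18, and -0.10 when scaled to the median of all probes). Gbp3, a guanylate-binding GTPase, read 8.51, 8.85 and 8.89 in XCT790 plus T3 livers against 6.97, 7.04 and 6.63 in control livers, a rise of 1.87 (SE 0.14, adjusted p = 2.54e-06). Psmb9 (a subunit of the immunoproteasome) and Tap1 (which carries peptides to MHC molecules) fell by 0.80 and 0.88, Tap1 being above background on 1 of 3 XCT790 plus T3 arrays. Without XCT790 plus T3 array 3 or control array 3 the higher count was 3, and the lower count was 2 without XCT790 plus T3 array 1 or control array 2 and 3 without control array 3. Against XCT790 alone, 13 of the 27 were higher and 0 lower, where 7.62% of all genes were higher and 7.55% lower. Their list median relative to the control mean was 0.08, 0.29 and 0.29 on XCT790 plus T3 arrays, -0.43, -0.43 and -0.38 on XCT790 arrays, and 0.11, 0.12 and -0.23 on control arrays. Of 15 MHC genes 0 were higher and 1 lower, Tap1.

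**Figure D4:**
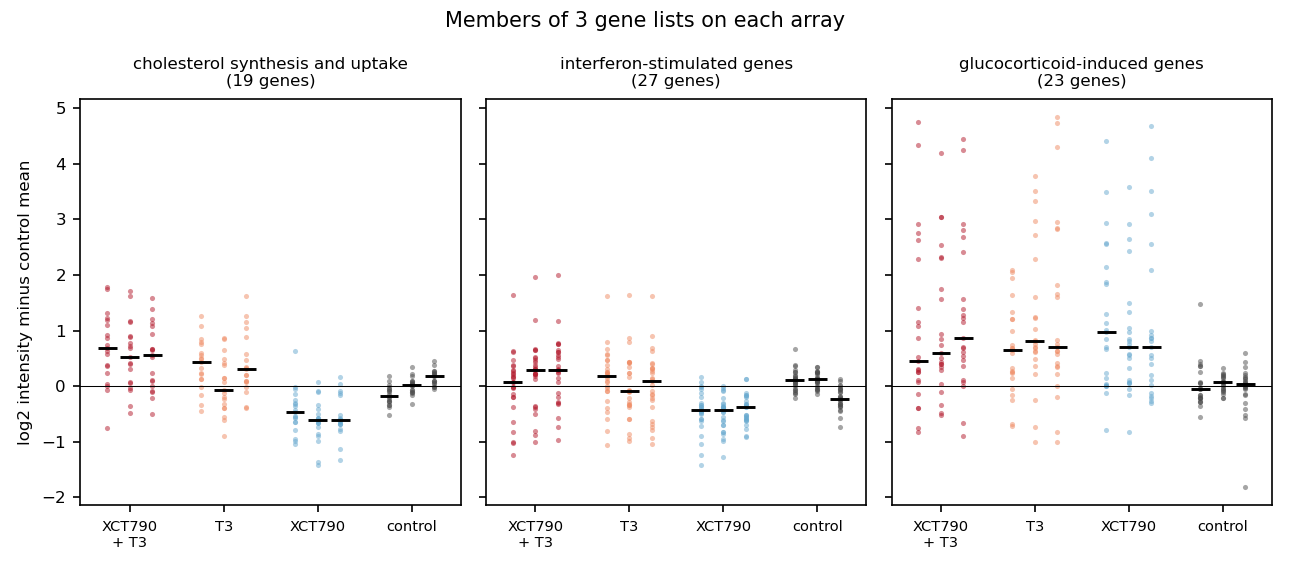
Each point is a gene of the named list on 1 array, as log2 intensity minus the mean of the control arrays on the y axis, with a black bar for the median of the list on that array; arrays run by group from XCT790 plus T3 on the left through T3 and XCT790 to control. For cholesterol genes the bars of XCT790 plus T3 (0.53 to 0.68) lie above control and those of XCT790 alone (-0.62 to -0.46) below it, and for glucocorticoid-induced genes all treated bars lie above control.

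Markers of other liver cells were compared to see what moved with these lists. In bulk liver, fewer cells of a type and less RNA per cell cannot be told apart. Of 13 tested Kupffer cell and macrophage markers 4 were higher and 0 lower (median 0.54), and their summed intensity was 12258 to 15794 on XCT790 plus T3 arrays and 6702 to 11025 on control arrays, without overlap. The list median relative to the control mean did overlap, at 0.50, 0.16 and 0.77 on XCT790 plus T3 arrays and 0.36, -0.03 and -0.34 on control arrays. The list median was 0.75 for T3 alone and -0.27 for XCT790 alone, and 8 of 13 were higher with XCT790 plus T3 than with XCT790 alone, where 7.62% of all genes were higher. Cd163 (a haemoglobin scavenger receptor) and Slc40a1 (ferroportin) rose by 1.20 and 0.79 (Slc40a1 without a call after scaling to the median of all probes, adjusted p = 0.0791), while Clec4f and Timd4, which mark resident Kupffer cells, rose by 0.77 and 0.54 with calls that were not stable. Clec4f was lost without XCT790 plus T3 array 3 or control array 2 or 3 (adjusted p of 0.0766 to 0.102), Timd4 without any of the 6 arrays (0.0528 to 0.133), and the list count was 2 without XCT790 plus T3 array 3 or control array 2 or 3. Cd68 was not among the genes tested. In the comparison with XCT790 alone, 2 of 23 acute phase genes were higher and 2 lower. Of all genes 7.62% were higher and 7.55% lower there. The part of macrophages in the interferon and acute phase results was not tested.

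Hepatocyte markers had 0 of 15 higher and 3 lower (median -0.23). Cyp1a2, a cytochrome P450 of the cells around the central vein, read 11.83, 12.15 and 11.96 with XCT790 plus T3 and 13.33, 13.22 and 13.41 in control, a fall of 1.34 (adjusted p = 4.92e-05). Cebpa, a hepatocyte transcription factor, fell by 0.76. Of 18 sinusoidal endothelial markers 1 was higher and 1 lower, and of 12 stellate cell markers 0 were called. Leaving out 1 array gave 0 to 2 higher endothelial markers. Of the lymphocyte list 2 of 17 genes were tested, of the cholangiocyte list 3 of 9, and 0 of these 5 were called. The pancreatic elastases Cela1 and Cela2a, named after their values were seen, rose by 1.02 and 2.37. Of their list of 16 pancreas, gut, muscle and adipose markers only 4 were tested, with 2 higher, 0 lower and a lowest log2 fold change of -0.17. The list median was 0.58 with XCT790 plus T3, 0.45 with T3 alone (2 higher) and -0.19 with XCT790 alone (1 higher). The tested members had a summed intensity of 4387 to 4975 on XCT790 plus T3 arrays and 2259 to 2556 on control arrays. Cpa1, Prss1, Pnlip and Ins2 were not among the genes tested. The part of such cells in any result was not tested.

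Apart from the cell cycle list, the remaining lists held calls in both directions. Their counts stand beside 8.93% higher and 9.7% lower among all genes, and some lie near those shares. Of 35 genes of the urea cycle and amino acid catabolism 5 were higher and 7 lower, with Oat (ornithine aminotransferase) at 12.07, 12.68 and 12.43 against 14.13, 13.94 and 14.04 in control, a fall of 1.64. Of 32 coagulation and complement genes 3 were higher and 6 lower, with C6 falling by 1.66. Of 24 stress-response genes 5 were higher and 3 lower, with Psat1 (serine synthesis) and Creld2 (an endoplasmic reticulum chaperone) rising by 1.51 and 1.24, Psat1 being above background on 1 of 3 control arrays. Of 24 cell cycle genes 5 were higher and 0 lower: Rrm2, a subunit of ribonucleotide reductase, read 6.56, 7.14 and 6.76 with XCT790 plus T3 and 5.24, 5.03 and 4.73 in control, a rise of 1.82 with 1 of 3 control arrays above background, and Ccnd1 (cyclin D1) rose by 1.88. Of 16 clock genes 3 were higher and 2 lower, with Ciart and Usp2 rising by 1.64 and 1.21. Counts that moved most when 1 array was left out were those of higher urea cycle and amino acid genes (3 without XCT790 plus T3 array 2), higher coagulation genes (1 without XCT790 plus T3 array 1 or control array 3), lower stress genes (1 without any XCT790 plus T3 array or control array 2) and lower clock genes (0 without control array 2 and 1 without any other).

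Against T3 alone, few genes passed the test: 7 were higher and 2 lower, which is 0.0923% of the genes tested, 0.0718% higher and 0.0205% lower, with 1238 genes at an unadjusted p under 0.05. They were A1bg, Cux2, Cyp2b10, Mycl, Dlx1as, Acnat2 and Grhl1 above T3 alone and Emilin1 and Arsa below it, Grhl1 being named after its values were seen. The call of Acnat2 was lost with any 1 of the 6 arrays left out (adjusted p of 0.0742 to 0.194). Those of Dlx1as and Arsa were lost without XCT790 plus T3 array 1 or 2 or any T3 array (0.0526 to 0.184). That of Emilin1 was lost without any XCT790 plus T3 array or T3 array 1 or 2 (0.0742 to 0.111). Dlx1as was above background on 0 of 3 T3 arrays, and Emilin1 on 1 of 3 XCT790 plus T3 arrays. A1bg differed by 2.19 (SE 0.14, adjusted p = 3.84e-05) and kept that call under every alternative tried. Cux2, with 9.34, 9.49 and 8.93 in XCT790 plus T3 livers, 7.55, 6.57 and 6.96 with T3 alone and 4.52, 4.60 and 4.87 in control, differed from T3 alone by 2.23 (adjusted p = 0.00657), a call lost without XCT790 plus T3 array 1 (adjusted p = 0.0501). Mycl, a MYC family transcription factor, read 7.81, 7.62 and 7.47 with XCT790 plus T3, 6.62, 6.43 and 6.10 with T3 alone and 7.61, 7.37 and 7.28 in control. It was thus lower with T3 alone and not called with XCT790 plus T3 against control, and the difference of 1.25 from T3 alone (adjusted p = 0.00784) was lost without XCT790 plus T3 array 1 or T3 array 2 (adjusted p of 0.0501 and 0.0515). Without XCT790 plus T3 array 1, 1 gene was called in all, without array 2 of that group 4, without T3 array 2 it was 2, and without T3 array 3 it was 5.

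Against XCT790 alone, 743 genes were higher and 736 lower, 15.2% of the genes tested. Pfkfb4 was higher by 4.36 on the log2 scale, and Cyp4a12b differed by -3.20 and Abcc3 by -3.07. Rnase2a (6.11), Pnpla3 (4.60) and Cux2 (4.35) were higher with 1 of 3 arrays of XCT790 alone above background, and Serpina7 (-3.43) was lower with 1 of 3 XCT790 plus T3 arrays above it, so these differences rest partly on background readings. Both comparisons share the XCT790 plus T3 arrays. Without XCT790 array 2 the count was 977.

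For 45 genes, 0.462% of those tested, the joint effect differed from the sum of both separate effects on the log2 scale, with 18 (0.185%) above the sum and 27 (0.277%) below it. The controls are labelled as given no agent, so any effect of injection or vehicle enters both separate effects. Its share in these differences cannot be told apart. Leaving out 1 array gave 17 to 90 genes. Lpin1, furthest below the sum, read 10.12, 10.15 and 10.64 with XCT790 plus T3, 9.92, 10.80 and 10.65 with T3 alone, 10.76, 10.47 and 10.39 with XCT790 alone, and 7.62, 7.97 and 7.91 in control. The arrays of the 3 treated groups overlapped and all lay above control, and the joint effect of 2.47 minus the sum was -2.86 (adjusted p = 0.0044). The same difference was -2.75 for Fkbp5 (adjusted p = 0.00616) and -2.27 for Eif4ebp3, a repressor of translation (adjusted p = 0.0181), a call of Eif4ebp3 that was lost with XCT790 plus T3 array 1 or 2 left out, or with array 1 or 3 of XCT790 alone left out (adjusted p of 0.0511 to 0.0577).

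Among genes above the sum, Arhgap26, a GTPase-activating protein of RhoA, read 7.21, 7.53 and 7.39 with XCT790 plus T3, 6.88, 6.81 and 6.97 with T3 alone, 5.33, 6.29 and 5.48 with XCT790 alone, and 7.17, 7.24 and 7.21 in control. Its joint change of 0.17 was not called (adjusted p = 0.608), against -1.51 for XCT790 alone (adjusted p = 0.00171), and lay 2.00 above the sum (adjusted p = 0.0126). Slc1a4, a neutral amino acid transporter, lay 1.99 above the sum with a joint change of -0.14 that was not called. A1bg had a fitted difference of 2.24 from the sum (adjusted p = 0.00142), but no array of XCT790 alone or control was above background for it, so that value is no measured size. Mvd lay 1.91 above it (adjusted p = 0.0181), a call lost without XCT790 plus T3 array 1 or 2 or control array 2 or 3 (adjusted p of 0.0504 to 0.0577).

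**Figure D5:**
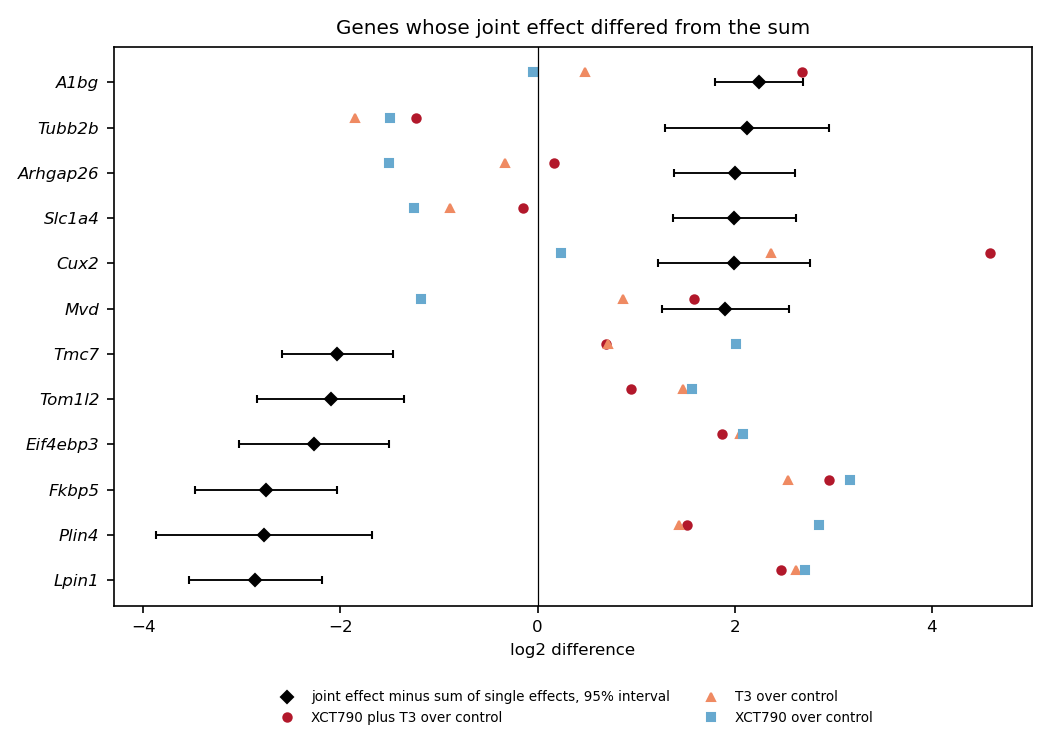
For the 6 genes furthest above and the 6 furthest below the sum, the joint effect minus the sum of both separate effects (black diamonds, with 95% intervals) and the log2 fold changes over control of XCT790 plus T3, T3 alone and XCT790 alone (red, orange and blue) on the x axis. The diamonds of A1bg (2.24, with XCT790 alone and control not above background) and Lpin1 (-2.86) mark the ends of the range, and for Lpin1, Fkbp5 and Eif4ebp3 the 3 fold changes over control lie close together.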

How the data were processed

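Liver RNA was measured on 12 Illumina mouse bead arrays, 3 arrays in each of 4 groups. Per the labels' protocols, TRIzol and an InviTrap kit gave the RNA, and biotin-labelled cRNA came from a MessageAmp kit. The deposited table held, per the file headers, a bead signal intensity and a detection p-value for each of 45281 probes and array, and its intensities were not yet normalized by the authors. The submitters' processing notes name Partek 6.6 without its step, and the authors' deposited matrix of processed values was used only as an alternative.

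Intensities were background-corrected by normexp (limma 3.58.1, R 4.3.3; detection p, offset 16), quantile-normalized and taken to log2. Of the probes, 17218 passed a filter of detection p under 0.05 on 3 or more arrays. Of all probes 34885 had 1 gene symbol, 18 several and 10378 none in the platform annotation, and the kept probe with the highest mean stood for each of 9747 genes. A linear model over all 12 arrays shared the spread between groups (eBayes, two-sided, Benjamini-Hochberg over all genes). A gene not above background on all arrays of a group was given as a bound against the lowest detected signal. The number of arrays limits the precision.

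Named genes were the 14 strongest calls in each direction by log2 fold change, provided no treated array overlapped a control array (clone and predicted names left out), up to 4 members with the lowest p of each list with 5 or more tested members, up to 6 called genes in each direction of the other comparisons, the 4 genes nearest the threshold, and Esrra, Esrrg, Ppargc1a, Thra, Thrb, Thrsp, Dio1, Ulk1, Dnm1l, Mt1, Mt2, Cyp2b10 and Cyp7a1. The members and lists were chosen with earlier results of these data known. Alternatives covered background, scaling, filters, probe choice, weights, arrays left out and the replicate number as a block. The fit of XCT790 plus T3 against control was tested on simulated data.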

Additional observations from a re-analysis of the deposited data

Results flagged for a closer look

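For 21 named genes the joint effect differed from the sum of both separate effects, tested in limma at an adjusted p under 0.05. Both separate effects were taken against controls labelled as given no agent. An effect of injection or vehicle would enter both, and cannot be told apart here from an agent altering the effect of the other. Above the sum were A1bg (2.24), Tubb2b (2.12), Arhgap26 (2.00), Slc1a4 (1.99), Cux2 (1.99), Mvd (1.91), Spon2 (1.67), Hectd2os (1.42), Olig1 (1.22), Cyp51 (1.12) and Dlx1as (1.02). Of these, A1bg, Cux2, Mvd and Cyp51 were called higher with XCT790 plus T3 than in control. Tubb2b, Spon2, Hectd2os and Olig1 were called lower, so for them the joint fall was smaller than the sum. Arhgap26, Slc1a4 and Dlx1as were not called against control. Below it were Lpin1 (-2.86), Plin4 (-2.78), Fkbp5 (-2.75), Eif4ebp3 (-2.27), Tom1l2 (-2.10), Tmc7 (-2.03), Usp2 (-1.88), Plin5 (-1.65), Il6ra (-1.58) and Sult1d1 (-0.88). All of those below it were called higher with XCT790 plus T3 than in control, by less than the sum. The calls of Cux2, Tubb2b and Plin4 were lost when any of several single arrays was left out, Cux2 without XCT790 plus T3 array 1 at an adjusted p of 0.0807, Tubb2b at 0.0813 and Plin4 at 0.0865. That of Tom1l2 was lost without XCT790 plus T3 array 1 or 2 or any control array (adjusted p of 0.0572 to 0.0716). For Spon2, Hectd2os, Olig1, Cyp51, Dlx1as, Usp2, Plin5, Il6ra and Sult1d1 the stability of this call was not examined. For A1bg (XCT790 alone and control), Dlx1as (T3 alone and XCT790 alone), Hectd2os (XCT790 plus T3 and T3 alone), Cux2 and Tom1l2 (control) no array of the groups in brackets was above background, so their values are no measured sizes. Outside the gene-level comparison, 343 of 2772 kept probes without exactly 1 gene symbol were also called between XCT790 plus T3 and control.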

How the results depend on the processing

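The count of genes called between XCT790 plus T3 and control stayed within 1.5 times of 1815 under every alternative run, between 1239 (1 array left out) and 2377 (scaling to the median of all probes), and was 1429 with only the 6 arrays compared. That scaling gave 288 higher and 2089 lower genes, 12.1% higher against 47.9%, and turned Atp5c1 (-0.0409) and Ndufs7 (-0.00936). Leaving out 1 array gave 1239 to 1517 genes, 604 to 753 higher and 635 to 764 lower. Of the 146 named genes called, 102 kept the call under every alternative and 44 did not: 30 lost it when 1 of the 6 arrays was left out and 24 under scaling to the median of all probes, with some in both. Without background correction 20 kept the call with a log2 fold change over 1.5 times smaller. Against T3 alone the count of 9 was 17 without background correction, 14 with an offset of 50, 18 with median scaling, 4 with median scaling over kept probes, 17 with the authors' matrix, 1 with only the 6 arrays, 3 with the replicate block, and 1 to 7 with 1 array left out. Against XCT790 alone leaving out 1 array gave 977 to 1230. For the joint effect minus the sum the count of 45 was 143 without background correction, 126 with an offset of 50, 141 with the authors' matrix, 27 without a filter, 91 with a strict filter, 69 with array weights, 24 with the replicate block, and 17 to 90 with 1 array left out, and a fit on only the 6 arrays is not possible for it. The cause of these moves was not tested, except that fewer arrays or more genes tested come with the alternatives that leave arrays out or drop the filter. Replicate numbers did not pair the arrays of XCT790 plus T3 and control, whose same-numbered arrays deviated with r of -0.0154 to -0.0121. With T3 alone this r was 0.0824, -0.0181 and 0.130, and with XCT790 alone -0.0249, 0.0841 and -0.0432. The replicate block gave 1707 genes against control, 1383 against XCT790 alone and 3 against T3 alone. Dim probes limit low-level genes, which are given as bounds.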
